A study of Mus musculus with 8 samples.

Results

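The clustered protocadherins are cell surface adhesion proteins encoded by 3 tandem gene clusters, alpha, beta and gamma, on mouse chromosome 18. The family was chosen with earlier results of these data known. Within it, every gene whose symbol starts with Pcdha, Pcdhb or Pcdhg was taken as a member, without regard to its own values. This gave 58 of the 47434 genes in the table, of which 14 were alpha, 22 beta and 22 gamma genes. Poly-A RNA of the mouse hepatoma line Hepa 1-6 was sequenced in 4 libraries labelled G9a knockout (KO1 to KO4) and 4 labelled wild type (WT1 to WT4). G9a, the product of the gene Ehmt2, is a histone methyltransferase that places the repressive dimethyl mark on lysine 9 of histone H3. The comparison asks which of these genes had different RNA levels in the knockout cells. The sources used here do not say how the knockout was made, whether it is 1 clone, or whether the libraries of a group come from separate cultures, so p-values measure only the spread between these libraries, which may be technical.

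In neurons, each cell transcribes a small, largely random choice of the variable alpha, beta and gamma genes, and the proteins bind to the same set of isoforms on other cells, which lets a neuron recognise its own branches. Each alpha or gamma gene supplies its own first exon, which holds the extracellular cadherin repeats and the membrane span, and this exon is spliced to constant exons shared by the whole cluster. Beta genes have no shared constant exons. The last genes of the alpha and gamma clusters, called C-type, are chosen in a more regular way than the others. Promoter choice is known to depend on CTCF and cohesin, which loop promoters to distant enhancers, and on DNA methylation and histone H3 lysine 9 methylation, which keep unused promoters silent.

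Library totals lay between 58256100 and 75025236 counts, so a count of 0 in a library allows up to 3 counts, or 0.0401 to 0.0516 CPM, that is counts scaled to the library total. This limit covers counting error only. Ehmt2 itself fell from 314 ± 21.3 to 118 ± 1.55 CPM (SD, n = 4 each, normalized by the TMM method of edgeR), a log2 fold change of −1.41 ± 0.05 (SE, edgeR adjusted p = 3.82e-10). The groups separated on the first principal component of all genes (58.9% of the variance), and the wild-type libraries were spread along the second (8.6%), with WT1 at one end. The label of a liver cancer cell was only partly matched by markers. Alb, Ttr, Serpina1a, Fgb, Cyp3a11 and Hnf4a were at 0 in all 8 libraries, whereas the epithelial keratins Krt8 and Krt18 stood at 721 ± 30.04 and 489 ± 9.59 CPM in wild type. The hepatoma marker Afp rose from 5.77 ± 0.567 to 133 ± 11.9 CPM in knockout (SD, n = 4 each, log2 fold change 4.53, edgeR adjusted p = 2.12e-12), and Krt8 rose by 0.15 on the log2 scale.

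The alpha cluster was close to silent, the beta cluster was expressed at a low level from its last genes, and the gamma cluster was expressed chiefly through Pcdhgc3. On GRCm38 the 3 clusters lie on the plus strand of chromosome 18, alpha at chr18:36930184-37187661, beta at chr18:37264938-37524479 and gamma at chr18:37661793-37841873. Counts were found for 40 of the 58 members, and 18 were at 0 in all 8 libraries, 12 of them alpha and 6 beta. Gamma genes held between 97.22% and 98.61% of the family's counts in every library. At least 10 counts were reached by 30, 28, 25 and 29 members in KO1 to KO4 and by 26, 25, 24 and 26 in WT1 to WT4. The mean difference of 2.75 members was not beyond the spread (28.0 ± 2.16 against 25.25 ± 0.96, SD, n = 4 each, exact permutation p = 0.1143, two-sided, where 0.0286 is the smallest p possible). Among beta genes alone the numbers were 7.0 ± 1.63 and 4.75 ± 1.5 (exact permutation p = 0.1143). For beta genes the direction turned at a minimum of 4 counts (9.0 ± 2.45 against 9.5 ± 2.52, exact permutation p = 0.8286), and at 0.5 CPM the numbers were 4.25 ± 0.96 and 2.25 ± 0.5 (exact permutation p = 0.0571).

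**Figure D1:**
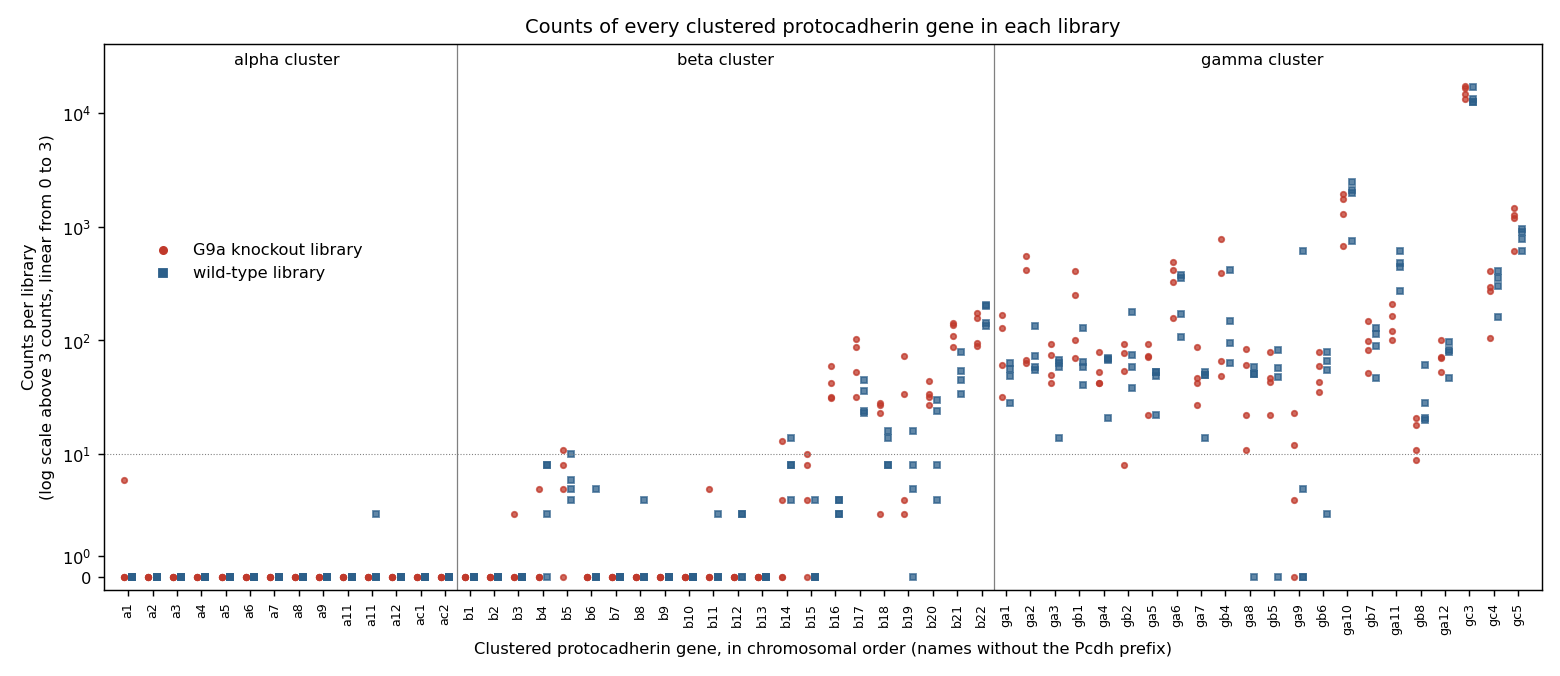
Counts of all 58 members in each library (vertical axis, logarithmic above 3 counts and linear below), with genes in chromosomal order along the horizontal axis; circles are knockout and squares wild-type libraries, and the dotted line marks 10 counts. Alpha genes sit at 0 with 2 exceptions, beta genes rise above 14 counts only from Pcdhb16 on, and Pcdhgc3 lies above all other members.

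Enough counts for the test were present in 27 of the 58 members, namely none of the 14 alpha genes, 6 of the 22 beta genes and 21 of the 22 gamma genes. Of these 27, 4 rose in the knockout, Pcdhb16, Pcdhb21, Pcdhgb1 and Pcdhga2, and 1 fell, Pcdhga11 (edgeR quasi-likelihood test, adjusted p under 0.05 over all 15840 genes tested). In the same test, 23.6% of all tested genes were called higher and 23.6% lower, 47.2% in all, against 14.8% and 3.7% of the tested members. The members' shares lay below the background in both directions, and this difference was not tested. Most tested members had few counts. Their median coefficient of variation (SD over mean) between libraries was 38.8% in knockout and 39.8% in wild type. Such spread makes a call harder to reach, so the shares cannot show whether the family was less affected than other genes. The median log2 fold change of the tested members was 0.19, with 16 above and 11 below 0 and a range from −1.70 to 3.40, beside a median of 0.004 over all genes tested. In normalized CPM the knockout libraries lay wholly above the wild-type libraries for 2 members, Pcdhb16 and Pcdhb21, and wholly below for 1, Pcdhga11. Among all tested genes these shares were 22.5% and 21.4%. In a bulk sample, fewer cells expressing a gene and less RNA per cell cannot be told apart.

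**Figure D2:**
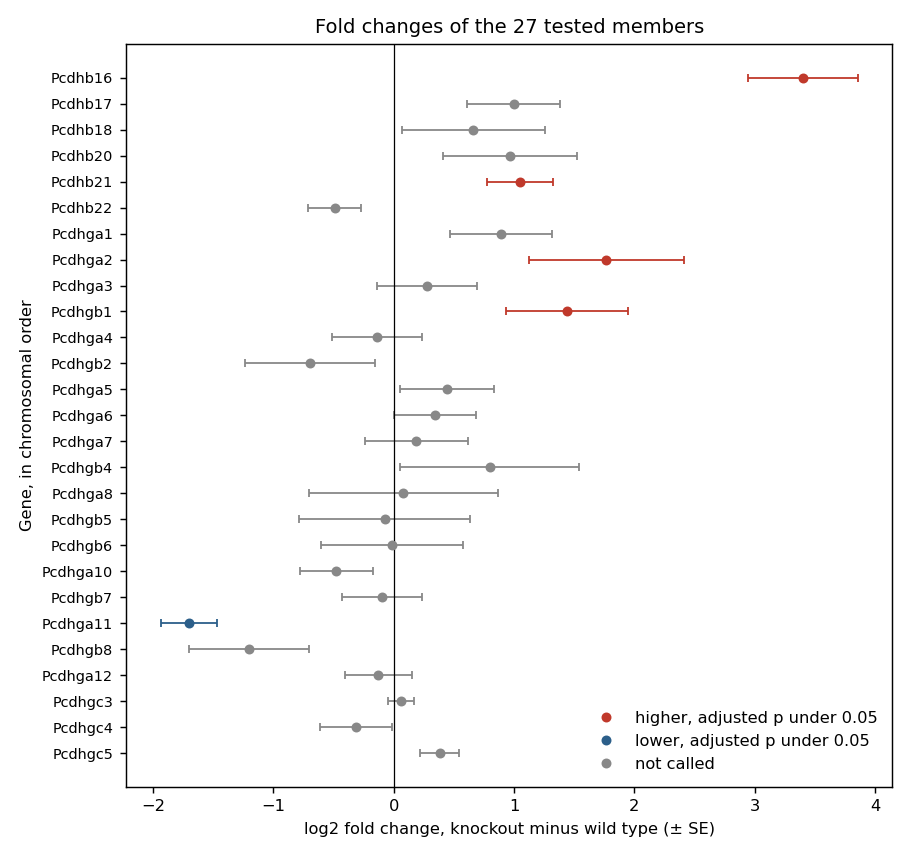
Log2 fold change (knockout minus wild type) of the 27 tested members with its standard error, in chromosomal order from top to bottom; red, higher; blue, lower; grey, not called. Pcdhb16 stands farthest to the right at 3.40 and Pcdhga11 farthest to the left at −1.70, with most gamma genes near 0.

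The alpha cluster gave 6 counts of Pcdha1 in KO2 and 3 counts of a gene named Pcdha11 in WT3, and nothing else. Both constitutive C-type genes, Pcdhac1 and Pcdhac2, were at 0 in all 8 libraries. A knockout effect on alpha genes was therefore not detectable at this depth, and the summed alpha counts did not pass the filter on low counts. The annotation gives the symbol Pcdha11 to 2 different alpha genes, and the other gene of that name was at 0.

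In the beta cluster, most of the RNA came from the 7 genes at its 3′ end, and Pcdhb1 to Pcdhb15 together held 4.2% ± 3.16 of beta counts in knockout and 7.78% ± 3.43 in wild type (SD, n = 4 each), with the highest share, 12.87%, in WT1. None of Pcdhb1 to Pcdhb15 exceeded 14 counts in any library, and none of them was tested. Pcdhb15 had 0, 8, 4 and 10 counts in KO1 to KO4 and 4, 0, 0 and 0 in WT1 to WT4. The beta genes as annotated shared few exact stretches of 100 bases with other members, at most 7.73% of a gene's stretches and a median of 0.2%. Of 22 beta genes, 9 shared none.

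Pcdhb16, a beta gene at chr18:37477814-37483038 annotated as 1 transcript, rose more than any other tested member. It had 60, 32, 31 and 42 counts in KO1 to KO4 against 4, 3, 3 and 4 in WT1 to WT4. The lowest knockout library thus lay several times above the highest wild-type library, and the wild-type level was at or just above the limit of 3 counts. In normalized CPM the values were 0.78, 0.462, 0.521 and 0.589 in KO1 to KO4 against 0.065, 0.045, 0.043 and 0.063 in WT1 to WT4. The log2 fold change was 3.40 ± 0.46 (SE, edgeR adjusted p = 3.97e-05). Because the wild-type counts are so few, the size of this fold is less certain than its direction. Pcdhb16 was called in all 16 alternative fits of genes that tested it, with log2 fold changes between 3.23 and 3.50. It passed the main filter on low counts through the knockout libraries alone, where it is high. Fits that kept it in this way are therefore no separate support for the rise. A filter of at least 1 CPM in 4 libraries removed it. With every gene of at least 1 count, its log2 fold change was 3.405 (edgeR adjusted p = 8.53e-05).

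Pcdhb21, at chr18:37513621-37518325, also rose. Its levels were 1.77, 2.04, 1.48 and 1.54 CPM in KO1 to KO4 and 0.881, 1.21, 0.493 and 0.714 in WT1 to WT4, so the groups did not overlap. Its log2 fold change was 1.05 ± 0.28 (SE, edgeR adjusted p = 0.00647), and it was called in 16 of 17 alternative fits of genes. The exception was the test against a 1.5-fold change (adjusted p = 0.136). As a single transcript, with more features tested, its adjusted p was 0.0665 in edgeR. Its 3′ end overlaps 455 exon bases of Pcdhb22, the next gene on the same strand, so reads there could have been given to either.

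Pcdhb22, at chr18:37517871-37524479, was the most abundant beta gene in wild type. It had 2.26, 2.28, 1.51 and 1.33 CPM in KO1 to KO4 and 2.19, 3.01, 2.96 and 2.24 in WT1 to WT4. The fold change of its neighbour was positive, whereas that of Pcdhb22 was −0.49 ± 0.22 on the log2 scale (SE) and did not pass the test (edgeR adjusted p = 0.0818). Pcdhb22 supplied 28.29%, 29.31%, 28.48% and 25.68% of all beta counts in KO1 to KO4. In WT1 to WT4 it supplied 40.12%, 53.35%, 65.81% and 54.86%. Its share was therefore lower in every knockout library than in any wild-type library, and the 6 genes before it, Pcdhb16 to Pcdhb21, made up 67.9% ± 1.87 of beta counts in knockout and 38.7% ± 8.21 in wild type (SD, n = 4 each). These shares were singled out after the values were seen and have no test.

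The other tested beta genes did not pass the test. Pcdhb17 had 1.13, 1.49, 0.891 and 0.449 CPM in KO1 to KO4 and 0.734, 0.363, 0.522 and 0.365 in WT1 to WT4. KO4 fell within the wild-type range, and the log2 fold change was 1.00 ± 0.39 (SE, edgeR adjusted p = 0.0502), on the line of the threshold. It was called in 6 of 16 alternative fits, among them those without KO4 (log2 fold change 1.24, adjusted p = 0.012) and without WT1 (1.24, adjusted p = 0.025). Pcdhb20 had 0.442, 0.39, 0.74 and 0.449 CPM in knockout and 0.392, 0.454, 0.058 and 0.127 in wild type, overlapping, with a log2 fold change of 0.97 (edgeR adjusted p = 0.179). Pcdhb18 had 0.351, 0.404, 0.05 and 0.322 CPM in knockout and 0.228, 0.121, 0.116 and 0.254 in wild type, also overlapping, with a log2 fold change of 0.66 (edgeR adjusted p = 0.397). Pcdhb19 was not tested and had 73, 34, 3 and 4 counts in KO1 to KO4 against 16, 8, 0 and 5 in WT1 to WT4, so its excess came from KO1 and KO2 alone.

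**Figure D3:**
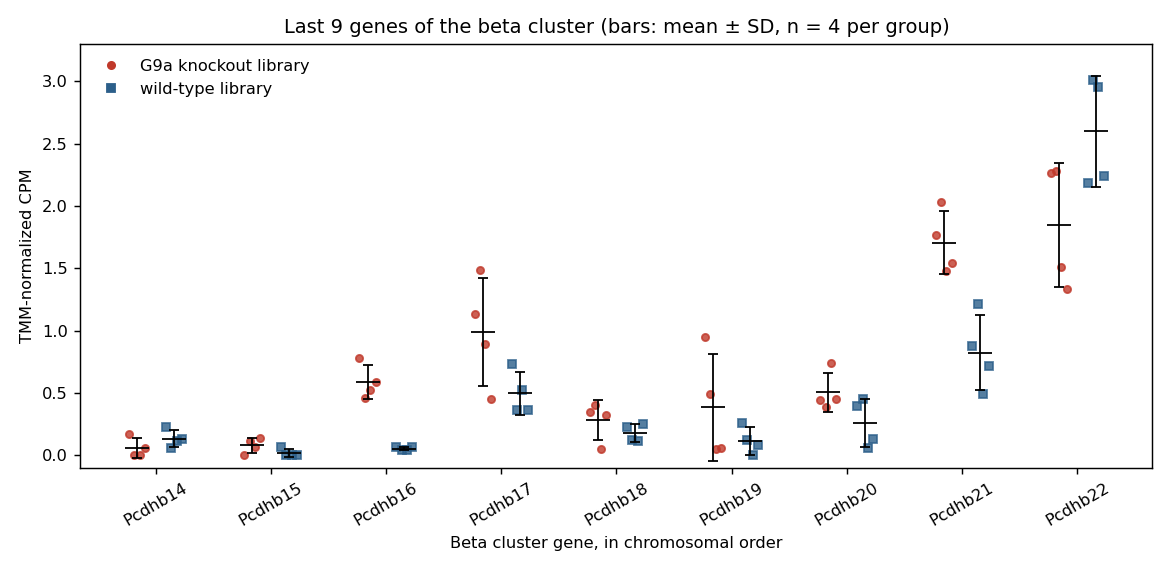
TMM-normalized CPM of the last 9 beta genes (vertical axis) in chromosomal order, with each library as a point and bars for the mean ± SD of 4 libraries. The knockout and wild-type points separate for Pcdhb16 and Pcdhb21, and Pcdhb22 is the only gene from Pcdhb16 on whose wild-type mean is the higher.

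Summed over all 22 genes, the beta cluster had 7.99, 7.78, 5.31 and 5.19 CPM in KO1 to KO4 and 5.45, 5.64, 4.49 and 4.08 in WT1 to WT4. KO3 and KO4 lay within the wild-type range. The log2 fold change of the sum was 0.42 ± 0.17 (SE, edgeR adjusted p = 0.0551), just short of the threshold. It passed in 8 of 17 alternative fits, including those without KO3 (0.51), KO4 (0.52) or WT2 (0.50). All 17 fits had a positive sign, between 0.31 and 0.52. The sum did not pass without KO1 (0.31, edgeR adjusted p = 0.178), KO2 (0.34, adjusted p = 0.151), WT1 (0.47, adjusted p = 0.0508), WT3 (0.38, adjusted p = 0.118) or WT4 (0.34, adjusted p = 0.143). Nor did it pass with limma-voom, with every gene of at least 1 count or in the test against a 1.5-fold change.

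All 22 gamma genes had counts, and their sum did not differ between the groups beyond its error. It was 290.8 ± 14.2 CPM in knockout and 286 ± 22.5 in wild type (SD, n = 4 each), a log2 fold change of 0.02 ± 0.06 (SE, edgeR adjusted p = 0.775). By type, in sums added after the data were seen, the log2 fold change was −0.34 for the 12 A-type genes (edgeR adjusted p = 0.319), 0.43 for the 7 B-type genes (adjusted p = 0.378) and 0.07 for the 3 C-type genes (adjusted p = 0.572). Without WT1, the A-type sum was called lower (−0.58, adjusted p = 0.0115) and the C-type sum higher (0.19, adjusted p = 0.0102). Without KO4, the B-type log2 fold change was −0.06 (adjusted p = 0.909).

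Pcdhgc3, a C-type gene at chr18:37806364-37841873 that is widely expressed outside the nervous system, held most of the gamma RNA. Its levels were 220.5, 239, 223 and 203 CPM in KO1 to KO4 and 274, 198, 180.1 and 197 in WT1 to WT4. WT1 was the highest of all 8 libraries and the other 3 wild-type libraries were the lowest, so that the groups overlapped through WT1 alone. The log2 fold change was 0.06 ± 0.11 (SE, edgeR adjusted p = 0.687), and without WT1 it was 0.20 and called (adjusted p = 0.0107). Its share of gamma counts lay between 68.17% and 87.46%, with the highest share in WT1. Per kilobase of exon it stood at 45.8 ± 8.41 CPM in wild type and 50.5 ± 4.28 in knockout (SD, n = 4 each), far above Pcdhga10, the next member, at 5.74 ± 2.27 and 4.36 ± 1.60.

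**Figure D4:**
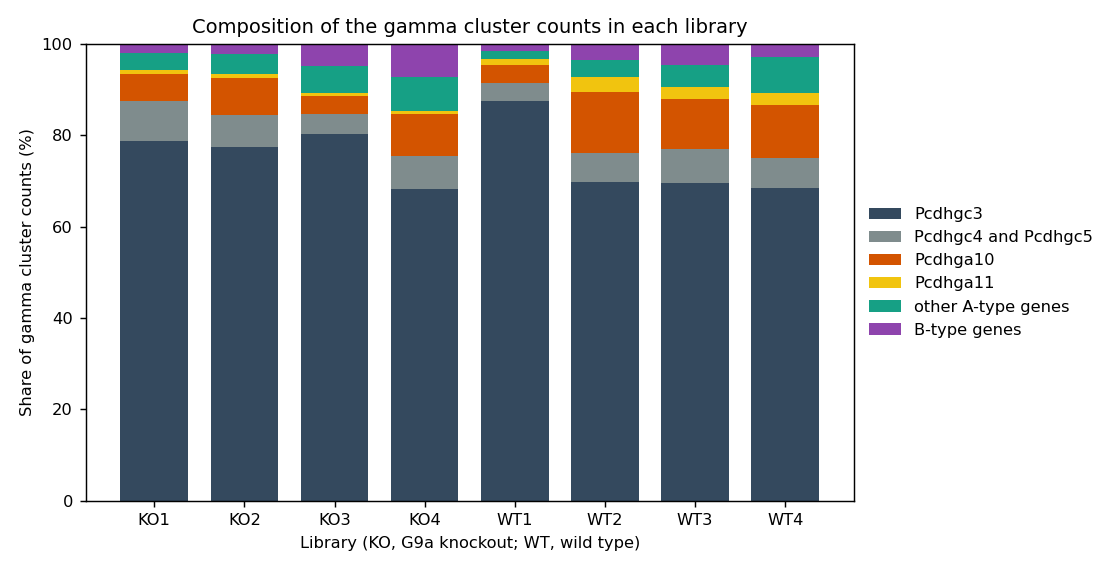
Share of all gamma counts (vertical axis, percent) held by Pcdhgc3, the other C-type genes, Pcdhga10, Pcdhga11, the other A-type genes and the B-type genes, as stacked bars for each library. Pcdhgc3 takes between 68.17% and 87.46% everywhere, WT1 has the smallest A-type share at 7.02%, and the Pcdhga11 band is thinner in the 4 knockout bars.

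The remaining C-type genes showed no called difference. Pcdhgc5 had 19.0, 17.2, 10.3 and 17.8 CPM in KO1 to KO4 and 9.85, 13.6, 13.7 and 12.3 in WT1 to WT4. All knockout libraries except KO3 lay above the wild-type range, and the log2 fold change was 0.38 ± 0.17 (SE, edgeR adjusted p = 0.0759). Without KO3 it was 0.55 and called (adjusted p = 0.0019). Pcdhgc4 had 5.26, 3.90, 1.77 and 4.11 CPM in knockout and 2.64, 4.51, 5.12 and 6.52 in wild type, overlapping widely, with a log2 fold change of −0.32 ± 0.30 (SE, edgeR adjusted p = 0.42) that lay between −0.52 without KO1 and −0.08 without KO3. Both C-type genes stood far below Pcdhgc3 per kilobase, Pcdhgc5 at 2.51 ± 0.365 and Pcdhgc4 at 1.04 ± 0.378 CPM in wild type (SD, n = 4 each).

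Pcdhga11, an A-type gene at chr18:37755731-37841873, was the only member that fell. It had 2.13, 3.03, 1.68 and 1.68 CPM in KO1 to KO4 and 4.44, 9.25, 6.46 and 7.62 in WT1 to WT4. Every knockout library lay below every wild-type library. Its log2 fold change was −1.70 ± 0.24 (SE, edgeR adjusted p = 5.31e-05). It was called in all 17 alternative fits of genes, between −1.91 and −1.53, and as a single transcript (log2 fold change −1.68, adjusted p = 0.00975).

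Its upstream neighbour Pcdhga10, the most abundant A-type gene, had 16.9, 24.98, 11.3 and 27.1 CPM in knockout and 12.2, 37.5, 28.8 and 33.5 in wild type. WT1 was again the low wild-type library and placed the groups in overlap. The log2 fold change was −0.48 ± 0.30 (SE, edgeR adjusted p = 0.222). Without WT1 it was −0.73 and called (adjusted p = 0.0163), and without KO3 it was −0.28 (adjusted p = 0.488). In wild type, the levels per kilobase of Pcdhga11 (1.42 ± 0.407 CPM, SD, n = 4), Pcdhgc4 and Pcdhga6 (0.792 ± 0.405) followed Pcdhgc5, and the ranges of these 3 over libraries overlapped.

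Pcdhga2 and Pcdhgb1, which lie near the 5′ end of the gamma cluster with Pcdhga3 between them, were called higher on the strength of KO3 and KO4. Pcdhga2 had 0.884, 0.91, 9.37 and 5.85 CPM in KO1 to KO4 and 1.19, 2.04, 0.797 and 0.937 in WT1 to WT4, so KO1 and KO2 lay within the wild-type range. Its log2 fold change was 1.77 ± 0.64 (SE, edgeR adjusted p = 0.0374). Pcdhgb1 had 0.91, 1.46, 4.22 and 5.68 CPM in knockout and 0.669, 1.97, 0.942 and 0.921 in wild type, with the same pair of libraries high. Its log2 fold change was 1.44 ± 0.51 (SE, edgeR adjusted p = 0.0315). Both calls were lost in 10 of 17 alternative fits, among them those without KO3 (1.04 for Pcdhga2 and 1.26 for Pcdhgb1), KO4 (1.57 and 0.95), WT1 (1.75 and 1.26), WT3 (1.60 and 1.36) or WT4 (1.66 and 1.36). Pcdhgb4, not called, was also high in KO3 and KO4, at 6.59 and 10.8 CPM against 0.858 and 0.708 in KO1 and KO2, but WT3 reached 6.07.

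Among the gamma genes with the lowest p-values, Pcdhgb8, Pcdhga1 and Pcdhgb2 did not pass the test. Pcdhgb8, annotated as a polymorphic pseudogene, had 0.234, 0.13, 0.353 and 0.154 CPM in KO1 to KO4 and 0.326, 0.923, 0.304 and 0.444 in WT1 to WT4, a log2 fold change of −1.20 ± 0.50 (SE, edgeR adjusted p = 0.0649). KO3 was the knockout library within the wild-type range, and without it the fold change was −1.51 and called (adjusted p = 0.0458), whereas without WT2 it was −0.72 (adjusted p = 0.306). Pcdhga1 had 0.793, 2.43, 0.538 and 1.81 CPM in knockout and 0.457, 0.742, 0.913 and 0.889 in wild type, a log2 fold change of 0.89 ± 0.42 (SE, edgeR adjusted p = 0.104), with KO2 and KO4 high. Without KO3 it was called (1.16, adjusted p = 0.0255), whereas without KO2 it was 0.49 (adjusted p = 0.382). Pcdhgb2 had 1.01, 0.78, 0.135 and 1.32 CPM in knockout and 0.62, 0.893, 2.58 and 1.19 in wild type, a log2 fold change of −0.69 (edgeR adjusted p = 0.321) that was −0.15 without WT3 (adjusted p = 0.858). Pcdhga9, which was not tested, had 4, 12, 0 and 23 counts in knockout and 5, 0 and 0 in WT1 to WT3 against 610 in WT4, so its wild-type mean is that of 1 library. The other 11 tested gamma genes had log2 fold changes from −0.14 (Pcdhga4) to 0.80 (Pcdhgb4), with edgeR adjusted p between 0.383 (Pcdhga5) and 0.985 (Pcdhgb6), and overlapping groups.

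The division of gamma reads among genes limits what single gamma genes can show. Of the exact 100-base stretches of a gamma gene, between 25.91% and 62.71% also occurred in another member, and the median was 43.65%. Among the A-type and B-type genes, 20 transcripts hold the constant exons and 9 do not. The 20 with constant exons had library medians from 21.5 counts (WT1) to 94 counts (KO4), and in each library between 4 and 13 of them lay within 25% of that median. Medians of the 9 transcripts that lack the constant exons were between 0 and 3 counts. The number near the median was 4 in KO3 and in WT1 and 13 in WT4. A similar count thus recurred across many transcripts with the same 3′ exons in some libraries, but not in all. Among tested gamma genes the median coefficient of variation between libraries was 40.1% in knockout and 43.1% in wild type, against 4.9% and 7.9% for the sum of the cluster. That sum is far larger, and Pcdhgc3 supplies between 68.17% and 87.46% of it. Its smaller variation therefore cannot show how reads were divided. How far reads from the shared exons contribute to the values of single gamma genes was not tested.

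**Figure D5:**
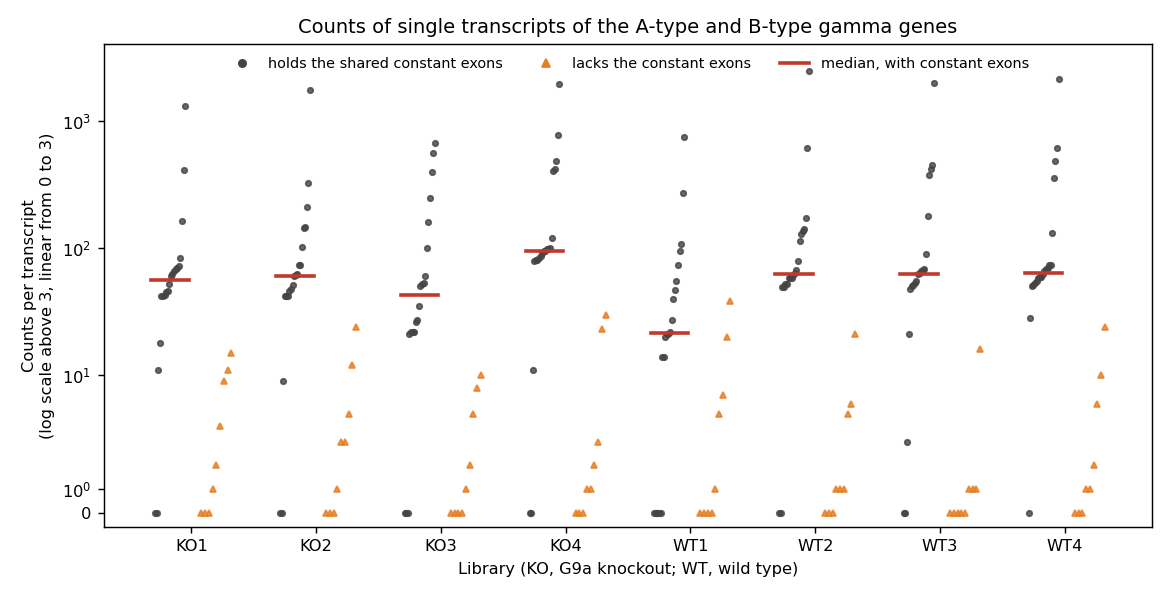
Counts of single A-type and B-type gamma transcripts (vertical axis, logarithmic above 3 counts and linear below) in each library; circles are the 20 transcripts that hold the constant exons, triangles the 9 that lack them, and the red line is the median of the circles. Many circles lie near the red line in most libraries, but only 4 of the 20 lie within 25% of it in KO3 and in WT1. The line is lowest in WT1 at 21.5 counts and highest in KO4 at 94, and triangles lie mostly below 10 counts.

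Other genes around the clusters gave a reference for the region. Of 42 tested neighbours within 1 Mb of a member, 10 rose and 7 fell, with a median log2 fold change of 0.02. Over all tested genes, 23.6% were called higher and 23.6% lower, with a median of 0.004. The nearest tested genes before the alpha cluster were Zmat2 (log2 fold change −0.01, not called), Hars2 (−0.07, not called) and Hars (−0.16, lower, edgeR adjusted p = 0.0173). After the gamma cluster, Diaph1 (0.04), Hdac3 (−0.05) and Rell2 (−0.57) were not called. The 6 tested genes lying between members had edgeR adjusted p between 0.104 and 0.788. They were Taf7, a subunit of the general transcription factor TFIID (0.12), Slc25a2 (0.75), Gm8242 (−0.99), Gm26672 (−1.59), Gm38182 (0.17) and BC037039 (−0.43), annotated as antisense. Of 368 tested genes elsewhere on the chromosome, 80 rose and 92 fell. Neither the neighbours nor these genes were tested against the shares over all genes.

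Among regulators of the clusters, 4 of 39 tested genes rose and 20 fell, with a median log2 fold change of −0.17. Over all tested genes, 23.6% were called higher and 23.6% lower, and the difference from these shares was not tested. Ctcf, the looping factor, fell slightly, from 149 ± 2.26 to 132 ± 2.08 CPM (log2 fold change −0.17, edgeR adjusted p = 0.00318). Of the genes for cohesin subunits, Rad21 (0.04) and Smc1a (−0.08) were not called, whereas Stag2 (−0.50), Smc3 (−0.32) and Stag1 (−0.25) were called lower. Of other cohesin-related genes in the list, Nipbl (0.17) and Pds5b (0.29) were called higher, and Mau2 (−0.15) and Wapl (−0.22) lower. Pds5a (0.13) was not called. Smchd1, a chromatin protein that silences clustered protocadherins in mouse tissues, fell by 0.26 on the log2 scale, and the H3 lysine 9 methyltransferase gene Setdb1 fell by 0.30. Wiz, a partner of G9a, fell by 0.36. The de novo DNA methyltransferase gene Dnmt3b fell from 8.30 ± 0.214 to 4.03 ± 0.432 CPM (SD, n = 4 each, log2 fold change −1.04, edgeR adjusted p = 3.8e-06). Lower values were also called for Cdca7 (−0.53), Tet3 (−0.65), Trim28 (−0.30) and Tet2 (−0.90). These 4 were named for their low p-values.

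Of 28 tested partners and effectors of protocadherins, 7 rose and 12 fell, with a median of −0.09. For this list and the cadherin lists below, the share over all tested genes was 23.6% higher and 23.6% lower. Nckap1, a subunit of the WAVE complex that the cytoplasmic parts of several protocadherins bind, fell by 0.76 on the log2 scale. Ptk2b, the kinase PYK2 that gamma and alpha constant parts inhibit, rose by 0.95, Rac1 by 0.49, and Src fell by 0.55. Non-clustered protocadherins and large cadherins moved in both directions, with 3 of 10 higher and 3 lower and a median of −0.02. Among them Pcdh7 fell from 49.7 ± 1.25 to 23.7 ± 1.06 CPM (SD, n = 4 each, log2 fold change −1.07), and Fat2 rose (1.11), as did Pcdh1 (0.43), whereas Cdhr1 fell (−1.04). Of 7 tested classical and desmosomal cadherins, 4 rose and the other 3 were not called, with a median of 0.92. The 4 were Cdh13 (1.99), Cdh5 (0.92), Cdh17 (1.75) and Cdh23 (2.08). Cdh23 was low, at 0.397 ± 0.096 CPM in knockout and 0.093 ± 0.073 in wild type (SD, n = 4 each). It passed the filter on low counts through its knockout libraries, where it is high. Cdh6, at 0.026 ± 0.052 CPM in knockout and 0.358 ± 0.182 in wild type (SD, n = 4 each), did not pass this filter and was not tested. N-cadherin, Cdh2, was not called (0.09).

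Summed levels of several marker lists were higher in every knockout library than in any wild-type library. These were the neuron, fibroblast and stellate cell, hepatocyte and hepatoma, and endothelial lists. The neural progenitor sum was lower in every knockout library. Hepatocyte and hepatoma markers summed to 1328 to 1488 CPM in knockout and 1161 to 1246 in wild type, with 2 of 4 tested markers higher. Beside the numbers of markers called, 23.6% of all tested genes were called higher and 23.6% lower. The summed level of 15 neuron markers was 86.0 to 88.9 CPM in knockout and 41.9 to 46.0 in wild type. Of 9 tested markers, 5 were higher and 1 lower, Tubb3 (log2 fold change −0.51), and Elavl4 and Dcx were at 0 in all libraries. The largest part of this sum was Ncam1, at 39.7 ± 3.10 CPM in knockout and 13.6 ± 0.391 in wild type (SD, n = 4 each). Syt1, among the 5, was at 0 in WT1, WT2 and WT4. It passed the filter on low counts through its knockout libraries, where it is high. That of 10 fibroblast and stellate cell markers was 432 to 464 CPM in knockout and 109 to 120 in wild type, with 5 of 7 tested markers higher and Lum at 0. Most of this sum was Col3a1, at 429 ± 12.8 CPM in knockout and 107 ± 4.83 in wild type (SD, n = 4 each), and Pdgfra (log2 fold change −0.60) and Pdgfrb (−1.85) were not called. Neural progenitor markers summed to 164 to 178 CPM in knockout and 181 to 226 in wild type, with 1 of 4 tested markers lower. Macrophage markers summed to 8.11 to 9.38 CPM in knockout and 5.45 to 9.60 in wild type (1 of 3 tested higher) and overlapped between the groups, and endothelial markers to 4.93 to 6.47 and 2.51 to 4.25 (1 of 4 tested higher, beside 23.6% of all tested genes). The part of these shifts in the protocadherin results was not tested.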

How the data were processed

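Per the labels' protocols, libraries were built with a SMARTer mRNA kit from poly-A RNA after TRIzol extraction. HISAT2, Trimmomatic, FastQC and the assembly GRCm38.p6 are listed in the submitters' processing notes without versions or roles. Which tool counted reads, with which strand setting and annotation, is not given in the sources used here. As deposited, the table holds estimated counts per transcript, whole numbers that were not normalized. Of 115220 transcripts, 114332 (99.23%) matched GENCODE mouse release 21 and were summed per gene. The design had assumed counts per gene. Reads shared by members could have been assigned to any of them, so single alpha and gamma values, and those of overlapping or antisense genes, are uncertain.

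Groups were compared with the quasi-likelihood test of edgeR 4.0.16 (R 4.3.3), with TMM scaling, filterByExpr, genotype as the only term and two-sided Benjamini-Hochberg adjustment over all 15840 genes tested. A gene was called at an adjusted p under 0.05. The SE was derived as |log2 fold change| / √F. Cluster sums replaced their members in the fit. Numbers of members with at least 10 counts were compared by an exact permutation test (SciPy 1.17.1). Alternatives used other scalings, filters, DESeq2 1.42.0, limma 3.58.1, a 1.5-fold test, single transcripts, a replicate block and each library left out. The fit was also run on simulated counts, with the same extra spread for every gene and no reads shared between genes. That run does not cover genes as variable as the members or the division of gamma reads. No pair of libraries within a group matched within sampling noise (lowest chi-square over its degrees of freedom 10.94), and each counted as 1 replicate. Described in full were the 8 tested members of each cluster with the lowest p and all C-type genes, and of other lists set genes, the 4 with the lowest p, and the nearest neighbours. Pcdhb15, Pcdhb19, Pcdhga9, Pcdhga6, Pcdhgb4, Stag1, Stag2, Smc3, Smc1a, Nipbl, Mau2, Wapl, Pds5a, Pds5b, Cdh6 and some marker genes were added after their values were seen. Members and lists were chosen with earlier results of these data known. No sequences of the members are shown.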

Additional observations from a re-analysis of the deposited data

Results flagged for a closer look

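Groups of 4 libraries were examined for 38 quantities, namely the 32 members with at least 10 counts in some library, 5 cluster or type sums and the number of members detected, each in knockout and wild type. In 7 of these 76 groups, 1 library lay far from the other 3, where chance gives about 1 in 20. WT1 had 0.228 CPM of Pcdhga3 against 0.969, 0.971 and 0.937 in WT2 to WT4, 0.343 of Pcdhga4 against 1.01, 1.0 and 1.11, and 0.228 of Pcdhga7 against 0.802, 0.725 and 0.794. Pcdhga8 was at 0 in WT1 and at 0.878, 0.739 and 0.81 in the others. These are gamma A-type genes that share constant exons, and WT1 also had the lowest A-type share of gamma counts (7.02%). Pcdhb15 was at 0.065 CPM in WT1, a level of 4 counts, and at 0 in the other wild-type libraries; beside 3 zeros any count would stand out in this way, so it is no sign of an unusual level. Pcdhga9 was at 9.68 CPM in WT4 and at 0.082, 0 and 0 in WT1 to WT3. Pcdhb20 was at 0.74 CPM in KO3 and at 0.442, 0.39 and 0.449 in KO1, KO2 and KO4. The causes were not tested.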

How the results depend on the processing

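Depth limits the alpha cluster and the beta genes before Pcdhb16, and shared exons limit single gamma genes. Pcdhb16 stayed higher and Pcdhga11 lower in each alternative fit of genes that tested them, and Pcdhb21 stayed higher except in the test against a 1.5-fold change. In the main filter, Pcdhb16 was kept through its knockout counts alone. The number of members called higher was 4, and became 2 with limma-voom, 2 with every gene of at least 1 count, 1 in the test against a 1.5-fold change, and 1 among single transcripts; with 1 library left out it lay between 2 and 4. It was 6 with library sizes alone and with upper quartile scaling, where Pcdhb17 and Pcdhgc5 were added, and library sizes alone moved the median of all tested genes to 0.084, with 28.7% of them called higher and 17.3% lower in place of 23.6% each. DESeq2 also called 4 members higher, but with Pcdhb17 and Pcdhgc5 in place of Pcdhgb1 and Pcdhga2. Those 2 were likewise replaced by Pcdhgc5 and Pcdhga1 without KO3, and by Pcdhb17 and Pcdhgc3 without WT1. The number called lower was 1 and lay between 1 and 3 with 1 library left out; Pcdhga9 joined without WT1, WT2 or WT3, Pcdhga10 without WT1 and Pcdhgb8 without KO3. The log2 fold change of the beta sum passed the threshold with library sizes alone (0.50), upper quartile scaling (0.48), DESeq2 (0.43) and a filter of at least 1 CPM in 4 libraries (0.44). With 1 library left out it lay between 0.31 and 0.52 and passed only without KO3, KO4 or WT2. The log2 fold change of the gamma sum lay between −0.017 (without WT3) and 0.068 with 1 library left out. It reached 0.103 with library sizes alone and was not called in any alternative. The alpha sum could be fitted only with every gene of at least 1 count (0.85, edgeR adjusted p = 0.782). The difference in members detected was 0.75 at 4 counts (exact permutation p = 0.7714) and 2.0 at 0.5 CPM (exact permutation p = 0.4857). Same-numbered libraries showed little shared deviation (correlations −0.023, −0.002, 0.075 and −0.018). Such values cannot settle whether libraries were prepared in numbered pairs. With the replicate number as a block, 2 members were called higher and 1 lower, and the beta sum was called (0.40, edgeR adjusted p = 0.0153). The causes were not tested.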
